A study of Mus musculus with 6 samples.

Results

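Genes of the mitochondrial carrier family Slc25 were followed in denervated gastrocnemius muscle of mice fed maslinic acid (MA). A gene was taken when a probe set of the array named it alone with a symbol made of Slc25a and a number, which gave 40 genes of the 17097 that could be followed by name. They were covered by 73 probe sets, and each gene is represented by its brightest probe set, the one with the highest mean over the 6 arrays. RefSeq lists 47 genes with such a symbol, so that the rule does not cover every one of them. The rule for the genes uses their names and no measured difference, though it was set with earlier results of these data known.

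The mice were male ICR mice that were 7 weeks old when purchased and were acclimated for a week before the diets began. The MA group (3 arrays) ate a diet with 0.27% MA, a triterpene of olive peel, and the control group (3 arrays) ate the same AIN-93G diet without it. In both groups the sciatic nerve was cut on either side a week after the diets began, and the muscle was taken on day 14 after surgery, so that every array is of denervated muscle and none of innervated muscle. Whether each array stands for a mouse of its own is not given in the sources used here, and the p-values therefore rest on the spread among these arrays, which may be technical.

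Carriers of the Slc25 family are small proteins that span the inner mitochondrial membrane, with a few exceptions in other membranes, and exchange the metabolites that cannot cross it unaided. In muscle they bring in ADP, phosphate, fatty acids bound to carnitine and the electrons of cytosolic NADH, and send out the ATP that contraction uses. The family also supplies mitochondria with amino acids, coenzyme A, nucleotides, NAD, glutathione and iron.

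Values are log2 signals that the authors normalized with RMA, and a difference is the MA mean minus the control mean on that scale. It was fitted with limma over 45037 probe sets, and the words rose and fell are kept for a Benjamini-Hochberg adjusted p under 0.05 over all of them, whatever the fold. The correlation of arrays over all probe sets, which are no replicates of each other, was r = 0.9992 to 0.9997 within a group and 0.9934 to 0.9937 between groups. The 10 markers of skeletal muscle fibers were all above background, taken as 3.95. That is the highest value of the nonspecific-binding controls without the control of only G and C, which read 7.11 to 7.33. Hybridization controls, foreign transcripts added to each sample, read higher on the MA side for 18 of 18 probe sets, by 0.04 to 0.35 with a median of 0.17. The part of that shift in small differences of the carriers was not tested.

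Most carriers differed little between the groups. Of the 40 genes, 17 rose in the MA group, 10 fell and 13 did not pass the test. Over all 17097 genes, 24.7% rose and 23.0% fell by the same rule. The counts by role and by list given below are to be read beside these shares and were not tested against them. A gene counted as above background when the mean of either group was over it, so that a gene can enter through its higher group. Of the 36 carriers above background by this rule, 16 rose and 9 fell, and of all genes above background 28.4% rose and 28.8% fell. These counts are therefore no separate support for the counts over all carriers. Past 1.2-fold, 3 carriers rose and 1 fell, against 5.92% and 6.87% of all genes. One of the 3 is Slc25a51, whose probe sets passed in opposite directions, and without it 2 rose past 1.2-fold. The values of MA and control arrays were fully separate at 30 of the 40 carriers and at 58.6% of all genes. The median difference of the family was 0.04, and that of all genes was 0.01. Of the 17 genes that rose, 9 did so by more than the hybridization controls' median, and of the 10 that fell, 3 did so by more than that size. The share of all genes past that size was not computed, and the controls shifted upward only. The 2 counts are therefore not read as a result about the carriers.

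**Figure D1:**
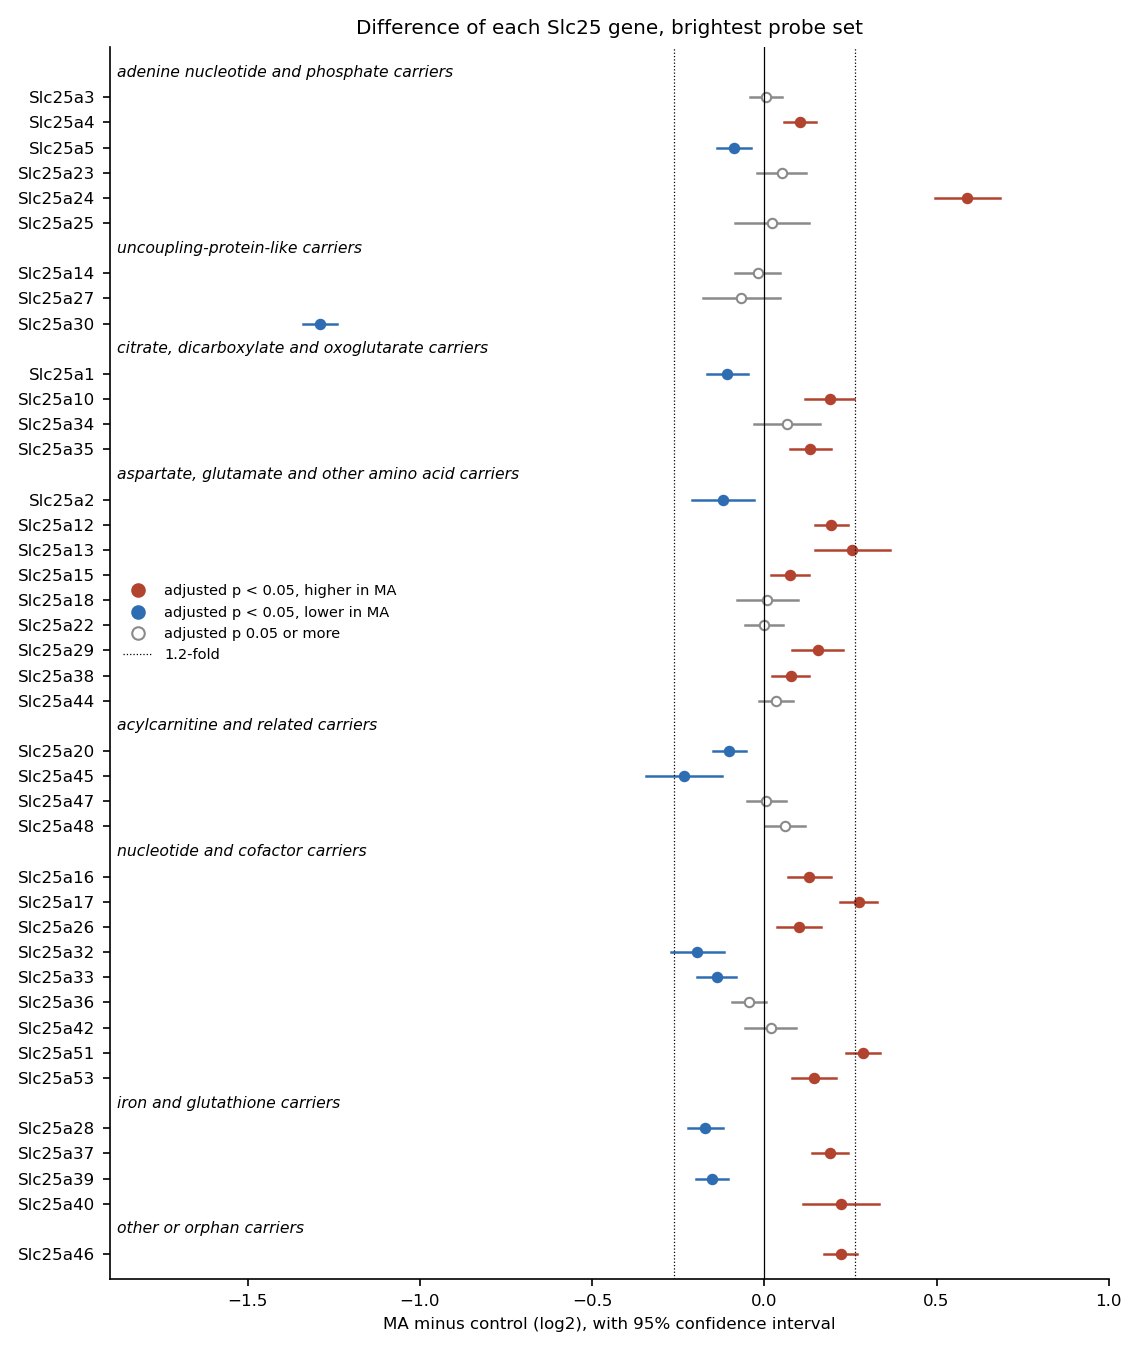
MA minus control (log2, horizontal axis) for the brightest probe set of each of 40 Slc25 genes, grouped by the substrate they carry, with the 95% confidence interval of limma as a bar and 1.2-fold as dotted lines. Slc25a30 at -1.29 and Slc25a24 at 0.59 stand outside the range of -0.23 to 0.29 that holds the other 38 genes.

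Slc25a30, a relative of the uncoupling proteins first described in kidney mitochondria, had the largest difference of the family. Its log2 value was 8.08, 8.09 and 8.11 on the MA arrays and 9.37, 9.40 and 9.38 on the control arrays. Every MA array lay more than a full log2 unit under every control array. The gene was 2.44-fold lower in the MA group (difference -1.29, standard error 0.02, adjusted p = 3.48e-09). When each array was left out in turn, the difference stayed between -1.30 and -1.28. It has 5 probe sets, of which the next brightest differed by -1.51 and by -1.09 (adjusted p = 7.81e-09 and 8.14e-09). The -1.51 is from a probe set with a suffix that marks probes which several transcripts may share. The brightest probe set and that of the -1.09 carry no such suffix. A dimmer probe set differed by -0.50 (adjusted p = 5.42e-06), and the dimmest, under the background in both groups, by -0.08 (adjusted p = 0.14). The mean of the 5 differed by -0.89. The other uncoupling-protein-like carriers did not pass the test. Slc25a14 differed by -0.02 (95% confidence interval -0.09 to 0.05) and Slc25a27 by -0.07 (-0.18 to 0.04).

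Slc25a24, a carrier that exchanges ATP-Mg for phosphate and is switched on by calcium, had the largest rise. It stood at 7.59, 7.63 and 7.75 in the MA group and at 7.07, 7.03 and 7.10 in the control group. The groups did not overlap, and the MA arrays were spread more widely than the control arrays. The gene was 1.5-fold higher in the MA group (difference 0.59, standard error 0.04, adjusted p = 1.03e-05), between 0.54 and 0.62 when each array was left out. Its dimmer probe set rose by 0.48 (adjusted p = 7.65e-06). The other 2 calcium-sensitive ATP-Mg carriers, Slc25a23 and Slc25a25, differed by 0.05 (-0.02 to 0.12) and 0.02 (-0.08 to 0.13) and did not pass.

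Muscle was measured whole, so that fewer cells of a type and less RNA per cell cannot be told apart. Of 12 markers of macrophages, 11 fell, with a median difference of -0.92, and their summed signal lay between 11.07 and 11.12 (log2) on the MA arrays and between 11.88 and 11.91 on the control arrays. None of these markers was under the background in both groups. Of the 10 muscle fiber markers, 6 rose and 0 fell, with a median of 0.13 and a summed signal of 15.58 to 15.59 against 15.49 to 15.50. Of 7 markers of slow fibers, 6 rose and 1 fell, with a median of 1.07 and a summed signal of 12.67 to 12.69 against 12.15 to 12.16. Of 8 markers of fibroblasts, 3 rose and 2 fell, with a summed signal of 12.44 on the MA arrays and 12.20 to 12.22 on the control arrays. Of 10 endothelial markers, 9 fell, with a summed signal of 8.73 to 8.77 against 8.95 to 9.0. Of 6 measured adipocyte markers, 4 rose and 1 fell, with a summed signal of 11.16 to 11.18 against 11.31 to 11.33. The adipocyte marker that fell, Fabp4, was the brightest of them (10.97 against 11.19) and makes up most of that sum. Of 5 measured Schwann cell markers, 2 rose and 2 fell. The part of these cells and fibers in the differences of the carriers and of the other mitochondrial genes was not tested.

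The 250 bases before the annotated starts of these 2 genes are shown because they are the members that differ most and in opposite directions. They are from RefSeq, build GRCm38.p6, read 5′ to 3′ on the gene's strand, and capitals mark GGGCGG or its reverse complement, the GC box of Sp1. The window of Slc25a30 is chr14:75787038-75787287 on the minus strand and that of Slc25a24 is chr3:109122899-109123148 on the plus strand.
Slc25a30: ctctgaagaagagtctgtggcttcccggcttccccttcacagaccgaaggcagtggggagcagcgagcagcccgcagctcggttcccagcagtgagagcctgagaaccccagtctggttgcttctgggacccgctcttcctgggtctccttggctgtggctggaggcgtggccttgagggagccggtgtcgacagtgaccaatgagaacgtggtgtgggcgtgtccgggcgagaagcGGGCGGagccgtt
Slc25a24: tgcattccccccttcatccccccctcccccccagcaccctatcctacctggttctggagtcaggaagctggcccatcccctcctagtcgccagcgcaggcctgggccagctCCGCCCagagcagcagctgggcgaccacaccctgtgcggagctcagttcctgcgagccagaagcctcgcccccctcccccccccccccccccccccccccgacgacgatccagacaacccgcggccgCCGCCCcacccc
The window of Slc25a30 holds 1 GC box and that of Slc25a24 holds 2. Both strands were searched, and the table held 40 windows for 31 of the 40 carriers, some with several starts. A GC box was in 75.0% of the 40 windows and in 32.7% of all 32851 windows of this length. The ETS core CCGGAAG was in 12.5% of the carriers' windows and 6.9% of all, and TTCNNNGAA, a letter pattern of STAT sites, was in 2.5% and 7.0%. The letters TGTTTAC of FoxO, TCAAGGTCA of the estrogen-related receptors and GCGCATGCG of NRF1 were in 0 of the carriers' windows and in 3.2%, 0.4% and 1.4% of all. In both printed windows only GC boxes were found, and no match overlapped one of another pattern. Matches are letters in a window and not measured binding.

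The carriers of ADP, ATP and phosphate that serve ATP synthase moved little. Slc25a4, the ADP/ATP translocase of heart and muscle, stood at 11.96, 11.96 and 11.97 in the MA group and at 11.87, 11.85 and 11.86 in the control group. Its rise of 0.10 (adjusted p = 0.00377) was 1.07-fold, and its dimmer probe set, under the background, differed by -0.04 (adjusted p = 0.183). With the mean of its 2 probe sets it did not pass (0.03, adjusted p = 0.209). Slc25a5, the ADP/ATP translocase common in dividing cells, stood at 9.26, 9.28 and 9.26 against 9.35, 9.36 and 9.34. It fell by 0.09 (adjusted p = 0.0107), and its other 3 probe sets fell by 0.15 to 0.19. All 4 probe sets of Slc25a5 carry a suffix that marks probes which may also bind related transcripts, and Slc25a4 is such a relative, so that its value is uncertain. Slc25a3, the phosphate carrier, stood at 11.06, 11.05 and 11.07 against 11.05, 11.06 and 11.05. The groups overlapped, and the difference was 0.005 (-0.04 to 0.05, adjusted p = 0.864). A dim second probe set of Slc25a3, with 4.16 in MA-fed and 3.64 in control muscle, rose by 0.52 (adjusted p = 1.08e-05), and the mean of both passed at 0.26 (adjusted p = 5.27e-05).

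**Figure D2:**
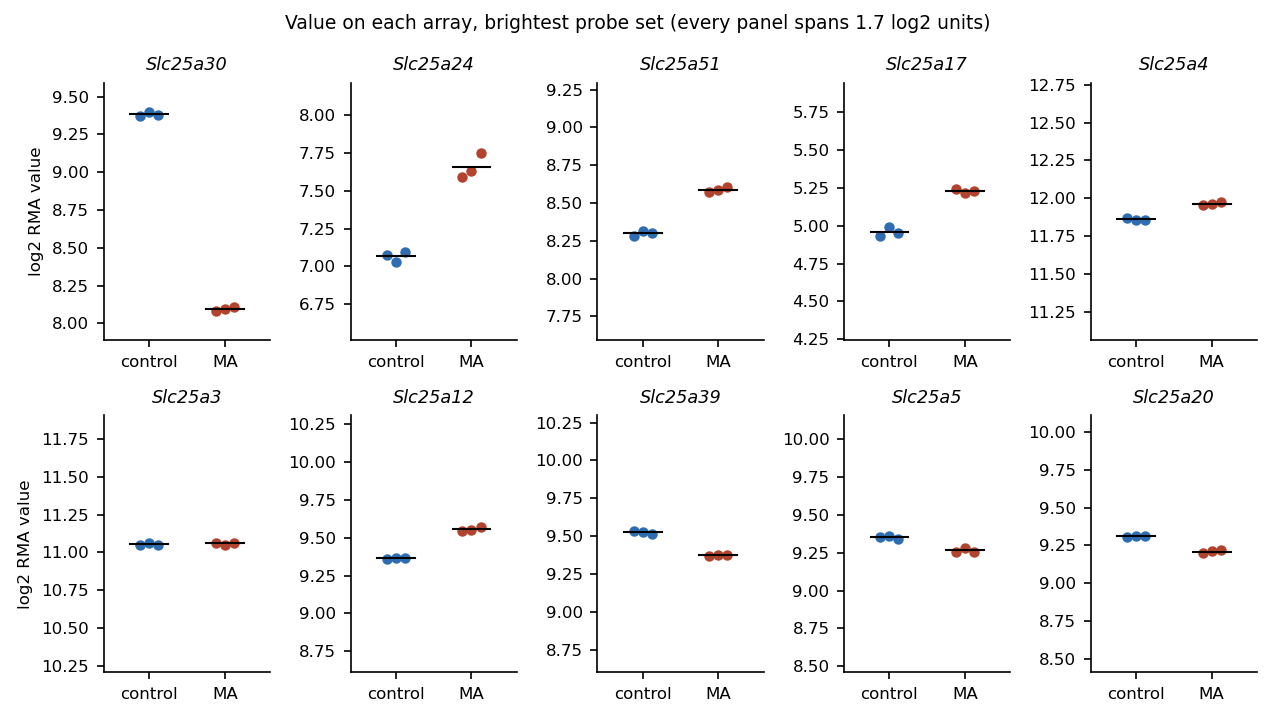
log2 RMA value (vertical axis) of each array for the 4 Slc25 genes past 1.2-fold, in the order Slc25a30, Slc25a24, Slc25a51 and Slc25a17, and for the 6 brightest, with 3 control arrays in blue, 3 MA arrays in red and the group mean as a line. Every panel spans the same range of log2 units, and the groups overlap at Slc25a3 only.

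Of 9 measured carriers of amino acids, 5 rose, 1 fell and 3 did not pass. Slc25a12, the aspartate-glutamate carrier of muscle and brain and a part of the malate-aspartate shuttle, stood at 9.54, 9.55 and 9.57 in the MA group and at 9.36, 9.37 and 9.36 in the control group. The groups did not overlap, and the rise was 0.19 (standard error 0.02, adjusted p = 1.34e-04), with 0.35 at its other probe set (adjusted p = 1.08e-04). Slc25a13, its counterpart of liver, rose by 0.26 (adjusted p = 0.00279) near the background, from 4.04 ± 0.05 (SD, n = 3) to 4.30 ± 0.09 (SD, n = 3). Slc25a29, a carrier of basic amino acids, rose by 0.16, and 3 of its 5 probe sets passed, all upward. The ornithine carrier Slc25a15 and the glycine carrier Slc25a38, which serves heme synthesis, each rose by 0.08 (adjusted p = 0.0334 and 0.031). Slc25a15 did not pass without MA replicate 2, MA replicate 3, control replicate 1 or control replicate 2 (adjusted p up to 0.111). Slc25a38 did not pass without MA replicate 1, MA replicate 2, control replicate 2 or control replicate 3 (adjusted p up to 0.112). Slc25a2, a second ornithine carrier, differed by -0.12 under the background and is counted among those that fell, with adjusted p = 0.0383 and up to 0.109 without each MA replicate, control replicate 2 or control replicate 3. The glutamate carriers Slc25a22 and Slc25a18, the latter under the background, differed by -0.001 (-0.06 to 0.06) and 0.01 (-0.08 to 0.10). Slc25a44, a carrier of branched-chain amino acids, differed by 0.03 (-0.02 to 0.08), and its second probe set fell by 0.11 (adjusted p = 0.0119).

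Partners of these carriers in the shuttle and in the outer membrane were higher where they passed. Of the 3 enzymes of the malate-aspartate shuttle measured, Got2 and Mdh1 rose by 0.18 and 0.16, and Mdh2 differed by 0.03 (adjusted p = 0.315). All 3 voltage-dependent anion channels of the outer membrane, Vdac1, Vdac2 and Vdac3, rose, by 0.13, 0.19 and 0.10. Of 16 subunits of ATP synthase, 9 rose, 0 fell and 7 did not pass, with a median of 0.09 and no member past 1.2-fold. The list's brightest members, Atp5g3 and Atp5h, differed by 0.05 (adjusted p = 0.0839) and 0.15 (adjusted p = 6.37e-04). Of 18 measured markers of mitochondrial content, 9 rose and 1 fell, with a median of 0.07. Cycs, cytochrome c, rose by 0.28 and Sdhb, a subunit of succinate dehydrogenase, by 0.26, both past 1.2-fold, while the brightest 2, Mdh2 and Cox4i1, differed by 0.03 and -0.09 (adjusted p = 0.315 and 0.00995).

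Of 4 measured carriers of acylcarnitine or related to that carrier in sequence, 0 rose, 2 fell and the others did not pass. Slc25a20, which exchanges acylcarnitine for carnitine, stood at 9.20, 9.21 and 9.22 in the MA group and at 9.30, 9.31 and 9.31 in the control group. The groups did not overlap, and it fell by 0.10 at both of its probe sets (adjusted p = 0.00468 and 0.00617). Slc25a45, a carrier related to it in sequence, fell by 0.23 (adjusted p = 0.00506), with 6.12, 5.93 and 5.95 against 6.19, 6.26 and 6.24, and did not pass the one-way test without moderation (adjusted p = 0.0582). Slc25a47 differed by 0.01 (-0.05 to 0.06). Slc25a48, under the background, differed by 0.06 (adjusted p = 0.0947), and passed only without MA replicate 2 (0.08, adjusted p = 0.0383). Of 6 measured partners of the acylcarnitine shuttle, 3 fell and 1 rose. Cpt1a, the carnitine palmitoyltransferase of liver and many tissues, fell by 0.64 (adjusted p = 2.43e-06), past 1.2-fold. Cpt1b, its muscle form, fell by 0.23 (adjusted p = 9.21e-05), Acsl6, an acyl-CoA synthetase and the list's brightest member, fell by 0.20, and Crat, which makes acetylcarnitine, rose by 0.16. Cpt2, the inner membrane enzyme, differed by -0.03 (adjusted p = 0.312) and Slc22a5, the carnitine transporter of the cell membrane, by -0.01 (adjusted p = 0.748).

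Some members of the family have other names and lay outside the rule. Among the 4 that were measured, 1 rose and 2 fell. Ucp3, the uncoupling protein of muscle, which is linked to fatty acid use, fell by 0.83 (adjusted p = 1.22e-07), from 7.32 to 6.49. Mtch1, an outer membrane relative of the carriers, fell by 0.28 (adjusted p = 1.21e-05), and its relative Mtch2 rose by 0.14 (adjusted p = 0.00147). Ucp1, the uncoupling protein of brown fat, differed by 0.08 (adjusted p = 0.128).

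**Figure D3:**
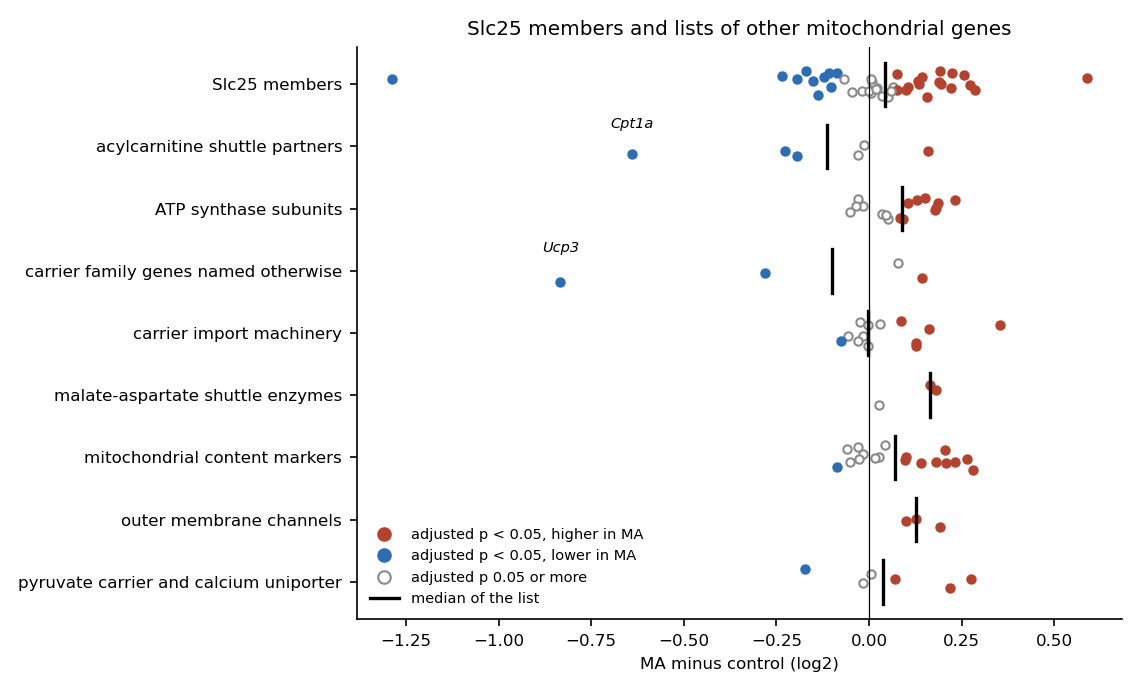
MA minus control (log2, horizontal axis) for the 40 Slc25 genes and for the measured genes of 8 lists of other mitochondrial genes, with 1 point per gene (filled: adjusted p under 0.05) and a black bar at the median. The median was 0.04 for the Slc25 genes, 0.09 for ATP synthase subunits and -0.11 for partners of the acylcarnitine shuttle, where Cpt1a lay at -0.64, and Ucp3 lay at -0.83.

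Of 4 measured carriers of citrate and dicarboxylates, 2 rose, 1 fell and 1 did not pass. Slc25a1, which exports citrate for lipid synthesis, fell by 0.11 (adjusted p = 0.0117). Slc25a10, which exchanges malate or succinate for phosphate, rose by 0.19 (adjusted p = 0.00146), while its dimmer probe set differed by -0.06 (adjusted p = 0.323) and the mean of both did not pass (0.06, adjusted p = 0.0973). Of the orphan carriers placed with them by sequence, Slc25a35 rose by 0.13 close to the background and Slc25a34 differed by 0.06 (-0.03 to 0.16). Of 6 measured genes of pyruvate and calcium uptake, 3 rose and 1 fell. Mpc1, a subunit of the pyruvate carrier, rose by 0.07 (adjusted p = 0.0233). Of the subunits of the calcium uniporter, Smdt1 fell by 0.17 (adjusted p = 2.62e-04) and Mcu rose by 0.22 (adjusted p = 4.72e-04). Micu3, which regulates that channel, rose by 0.27 (adjusted p = 5.54e-04), past 1.2-fold.

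Of 9 measured carriers of nucleotides and cofactors, 5 rose and 2 fell at the brightest probe set. With Slc25a51 taken by the mean of its probe sets, 4 rose and 3 fell. Slc25a17, the carrier of coenzyme A and other cofactors in the peroxisome membrane, stood at 5.24, 5.22 and 5.23 in the MA group and at 4.93, 4.99 and 4.95 in the control group. The groups did not overlap, and it was 1.21-fold higher (difference 0.27, standard error 0.02, adjusted p = 3.85e-05). Without 1 array its difference ranged from 0.26 to 0.29. Slc25a16 rose by 0.13, and the coenzyme A carrier Slc25a42 differed by 0.02 (-0.05 to 0.09), with a rise of 0.09 at its dimmer probe set (adjusted p = 0.0195). Slc25a26, which brings in S-adenosylmethionine, rose by 0.10 (adjusted p = 0.0184). Its other 2 probe sets differed by -0.06 (adjusted p = 0.18) and 0.40 (adjusted p = 1.13e-04), and it did not pass the one-way test (adjusted p = 0.0576), nor without MA replicate 2, MA replicate 3, control replicate 2 or control replicate 3 (adjusted p up to 0.0628). Slc25a32, a carrier of folate and FAD, and Slc25a33, a carrier of pyrimidine nucleotides, fell by 0.19 and 0.14 (adjusted p = 0.00184 and 0.00225). The only probe set of Slc25a32 carries the same suffix as those of Slc25a5, so that its value is uncertain as well. Slc25a36, also a carrier of pyrimidine nucleotides, differed by -0.05 (-0.10 to 0.005). Slc25a53, placed here for its sequence, rose by 0.14 (adjusted p = 0.00354), with 0.01 (adjusted p = 0.702) at a second probe set under the background and 0.08 for the mean of both.

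Slc25a51, the NAD carrier, was the one member whose probe sets passed in opposite directions. At the brightest, it stood at 8.57, 8.59 and 8.60 in the MA group and at 8.28, 8.31 and 8.30 in the control group, 1.22-fold higher (difference 0.29, adjusted p = 1.76e-05). The next stood at 7.12, 7.27 and 7.28 against 7.69, 7.59 and 7.66, a fall of 0.42 (adjusted p = 1.49e-04). The groups overlapped at neither. The third differed by -0.08 (adjusted p = 0.0769), and the mean of the 3 was lower in the MA group by a difference of -0.07 (adjusted p = 0.0422). The direction of Slc25a51 is therefore uncertain.

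All 4 carriers of iron and glutathione passed, 2 in each direction, where 24.7% of all genes rose and 23.0% fell. Of these carriers, Slc25a40 was under the background in both groups. Slc25a37, mitoferrin 1, which brings iron in and is most active in red cell precursors, rose by 0.19 (adjusted p = 2.27e-04), and its other 2 probe sets rose by 0.21 and 0.46. Slc25a28, mitoferrin 2 of other tissues, fell by 0.17 (adjusted p = 3.97e-04). The pair thus went opposite ways, with 8.44, 8.46 and 8.48 against 8.29, 8.27 and 8.26 for Slc25a37 and with 6.36, 6.33 and 6.33 against 6.50, 6.51 and 6.52 for Slc25a28. Slc25a39, the main glutathione carrier, stood at 9.37, 9.38 and 9.37 in the MA group and at 9.53, 9.53 and 9.51 in the control group. The groups did not overlap, and it fell by 0.15 (adjusted p = 5.13e-04), with -0.31, -0.05 and -0.03 at its other probe sets, of which the first passed. The brightest probe sets of Slc25a37 and Slc25a39 carry the suffix of probes that may bind related transcripts, and the 0.21 and -0.31 are from probe sets without it. Its relative Slc25a40 differed by 0.22 (adjusted p = 0.00624) under the background and did not pass the one-way test (adjusted p = 0.064). Of 7 measured markers of red cells and their precursors, 1 rose, 1 fell and 5 did not pass, and 6 of them were above the background. Their summed signal was 11.91 to 11.92 on the MA arrays and 11.93 to 11.94 on the control arrays. Hba-a1 and Hbb-b2, with means of 10.96 and 10.79 in the MA group, make up most of that sum. The other markers were far dimmer, with Ermap the next at 4.69 in the MA group, and the sum says little about them. The part of red cells and their precursors in the differences of these carriers was not tested.

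Slc25a46, a member of the outer membrane that acts in mitochondrial fission and fusion rather than in known transport, rose by 0.22 (adjusted p = 5.69e-05), with 9.11, 9.10 and 9.11 against 8.88, 8.89 and 8.90. The groups did not overlap there, but its second probe set differed by -0.02 (adjusted p = 0.522), and the mean of both rose by 0.10 (adjusted p = 0.00218). Of 13 measured genes of the machinery that imports carriers into the inner membrane, 5 rose, 1 fell and 7 did not pass. Timm9, a chaperone that escorts carriers between the membranes, rose by 0.35 (adjusted p = 5.41e-05), past 1.2-fold, and Tomm70a, the receptor of carrier precursors, by 0.16. Tomm20 and Tomm6, the brightest of the list, differed by 0.13 (adjusted p = 0.00147) and 0.03 (adjusted p = 0.354), and Timm22, the channel that inserts carriers, by -0.02 (adjusted p = 0.417).

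Carriers with several probe sets show how far a difference depends on the probe set. Of the 73 probe sets of the family, 26 rose and 20 fell, against 21.6% and 21.4% of all probe sets. Of the 20 genes with more than 1 probe set, Slc25a5, Slc25a12, Slc25a20, Slc25a24 and Slc25a37 passed in 1 direction at every probe set. At Slc25a36 and Slc25a25 none passed. Slc25a51 was called in both directions, and the others had at least 1 probe set that passed and at least 1 that did not.

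**Figure D4:**
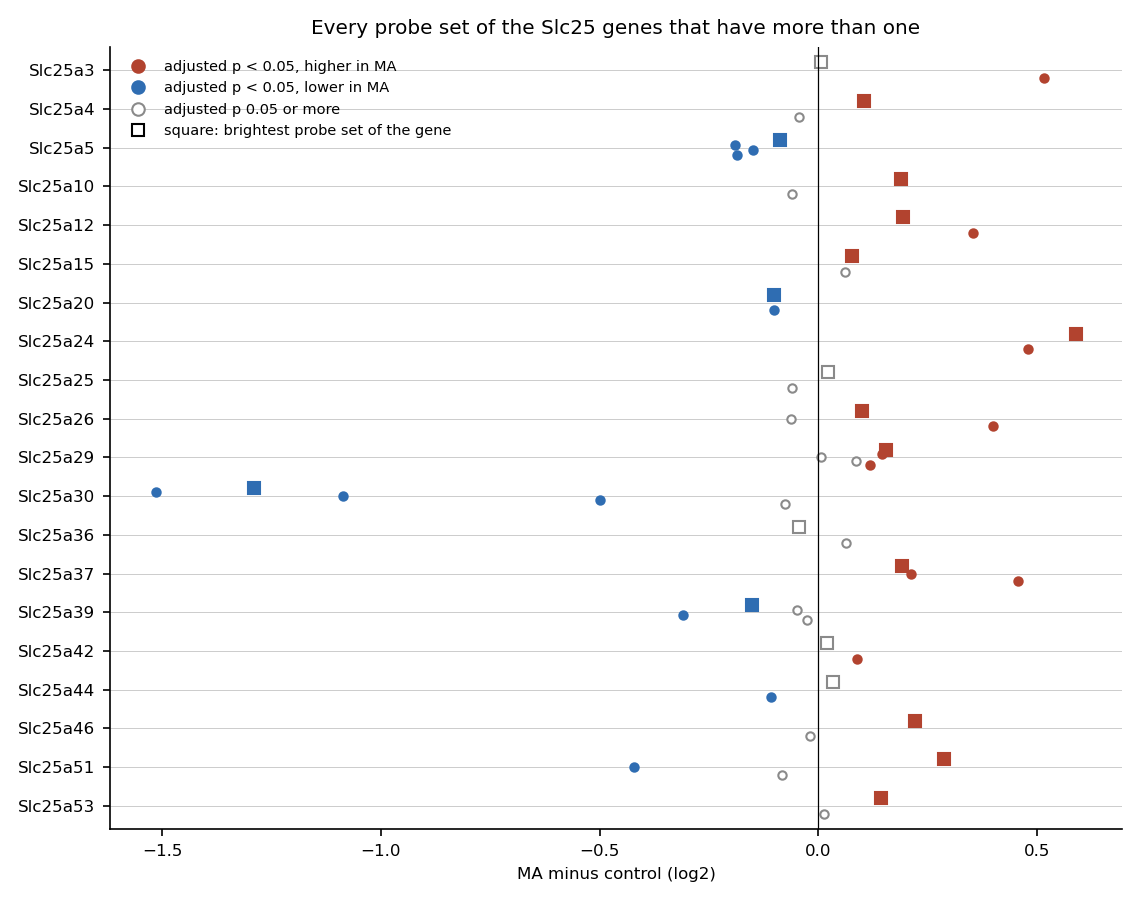
MA minus control (log2, horizontal axis) at every probe set of the 20 Slc25 genes with more than 1, with the brightest as a square, filled where the adjusted p was under 0.05. The probe sets of Slc25a30 run from -1.51 to -0.08 and those of Slc25a51 from -0.42 to 0.29.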

How the data were processed

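RNA of gastrocnemius muscle was labelled with a 3' IVT kit and hybridized to Affymetrix mouse array strips of the perfect-match design, 1 array per sample. The deposited values are log2 signals, 1 per probe set, that the authors made with RMA in Expression Console, whose version is not given in the sources used here. Which arrays shared a strip is not given there either.

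The log2 values were used without further normalization in R 4.3.3 with limma 3.58.1 (lmFit and eBayes, no covariate, 3 arrays against 3), with Benjamini-Hochberg adjustment over 45037 probe sets after 104 array controls were set aside. A standard error is that of limma and confidence intervals are at 95%. Probe sets were named by the platform annotation, and symbols and promoter sequences were matched to RefSeq (GRCm38.p6), where all 40 members were found. The background is the highest value of the nonspecific-binding controls without the one of probes made of G and C alone, which read 7.11 to 7.33. The number of arrays limits the precision.

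The members, gene lists, rules and alternatives were chosen with earlier results of these data known. Members past 1.2-fold and the 6 brightest were named with all arrays. Of each list, the genes past 1.2-fold and the brightest 2 were named, and other list members named were picked for their role. The steps were tested on simulated data. Alternatives were an unmoderated one-way test, a trend, robust moderation, quantile normalization again, median centring, array weights, a replicate block, leaving out dim probe sets, other probe set rules, fold thresholds and leaving out each array.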

Additional observations from a re-analysis of the deposited data

How the results depend on the processing

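The counts of 17 carriers higher and 10 lower in the MA group stayed within 1.5 times under every alternative that kept the threshold, and without each array in turn they ranged from 14 to 16 and from 9 to 10. A fold over 1.2 as well left 3 higher and 1 lower, a fold over 1.5 left 1 and 1, and a fold above that of the most shifted hybridization control, added after seeing the data, left 1 and 1. The replicate block gave 17 and 10 and changed no call. Deviations of arrays with the same number correlated with r = 0.188, 0.042 and 0.142. Over all pairs of an MA and a control array the range was -0.18 to 0.188, and 4 of 6 arrays correlated best with their own number. These values do not settle whether arrays of the same number are pairs, and the main fit took none. With the mean of all probe sets Slc25a51 turned to -0.0727 (adjusted p = 0.0422), and with the brightest probe set free of an _s_ or _x_ suffix, which 37 carriers have, Slc25a26 turned to -0.0615 (adjusted p = 0.18). In both cases the alternative reads other probe sets. Of the 27 called carriers, 18 kept their call and direction in all 16 settings in which they could be tested, fold thresholds aside. The other changes are 23 calls lost and 4 gained over single carriers and settings, of which Slc25a44 with quantile normalization again (0.07, adjusted p = 0.0331) and Slc25a42 with the mean of its probe sets (0.05, adjusted p = 0.0448) were gained. The cause of these was not tested.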
